A study of Ovis aries with 36 samples.

Results

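Subcutaneous adipose tissue of sheep fetuses was represented by 12 of the 36 RNA-seq libraries of the study, and these 12 pools differed widely in how much skeletal muscle RNA they held. They were divided into 6 pools rich in muscle RNA (CN F1, CN F2, DG F1, DG F2, DG M2 and HY F2) and 6 pools poor in it (CN M1, CN M2, DG M1, HY F1, HY M1 and HY M2). The division was made on the measured level of muscle marker genes (NRAP, SYNPO2L, MURC and ITGB6), so every difference between these classes is given as a description and carries no test. Each name gives the diet of the ewe, the sex of the fetuses (F or M) and the number of the pool.

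The fetuses came from Polypay ewes mated to a single ram and fed from mid to late gestation either alfalfa haylage (HY, called hay in the labels), limit-fed whole shell corn (CN) or limit-fed dried corn distillers grains (DG). RNA of a fetus or of several was pooled within diet and sex, and some pools of a diet hold fetuses of the same ewe, so the spread between pools is not a spread between unrelated animals. Longissimus dorsi muscle and perirenal adipose tissue of the pools with the same names, 12 libraries each, served here as references for muscle and for fat. The diet of the ewe was the only treatment, and every pool belongs to a diet.

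The classes were not balanced. Rich pools were 5 female and 1 male, and poor pools 1 female and 5 male. By diet, 2 rich pools were CN, 3 DG and 1 HY, against 2 CN, 1 DG and 3 HY among the poor pools. If the pool numbers of the paper match the names here, CN F2 held a lone fetus. CN M1, CN M2 and HY M1, all poor, then held more fetuses than any rich pool. Total counts on loci differed as well, with 15064066 to 20272024 in rich pools (median 17062909) and 6705766 to 12698475 in poor pools (median 9537462). These ranges did not overlap, whereas the mapped reads that the paper lists for the same pools did. Muscle content, sex, diet, fetuses per pool and total counts therefore cannot be told apart in what follows.

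Skeletal muscle fibres are multinucleate cells filled with sarcomeres, whose thin filaments are anchored at the Z-disc. Fibres are slow, with oxidative metabolism and much myoglobin, or fast, and each kind carries its own myosin, troponin and calcium pump genes. White adipocytes store triglyceride and secrete hormones such as adiponectin, whereas brown adipocytes burn lipid through the uncoupling protein UCP1. In the fetal lamb, adipose depots and above all the perirenal depot hold many brown adipocytes.

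NRAP, SYNPO2L and MURC encode proteins of the Z-disc, the myofibril attachments and the muscle caveolae, and ITGB6 encodes an integrin subunit best known from epithelia. On the Oar_v3.1 assembly their loci lie on chromosome 22 from 33012856 to 33088909 (NRAP), chromosome 16 from 7986543 to 7989083 (SYNPO2L), chromosome 2 from 22436353 to 22447063 (MURC) and chromosome 2 from 148344251 to 148488167 (ITGB6). The spans cover whole loci and do not separate exons from introns.

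Levels are given as CPM, the count of a gene scaled to a common library size by TMM. NRAP was 149 in CN F1, 342 in CN F2, 2021 in DG F1, 1051 in DG F2, 916 in DG M2 and 437 in HY F2. Among the poor pools it was 19.0 in CN M1, 71.5 in CN M2, 10.4 in DG M1, 11.5 in HY F1, 18.7 in HY M1 and 918 in HY M2. The classes overlapped through HY M2 alone, which exceeded 4 of the 6 rich pools. SYNPO2L was between 3.80 (CN F2) and 48.2 CPM (DG F1) in rich pools, and 18.5 CPM in HY M2 against at most 0.998 CPM in the other poor pools. MURC ranged from 4.98 to 112 CPM in rich pools and reached 15.2 CPM in HY M2 and 7.27 CPM in CN M2, both above CN F2. ITGB6 did not overlap, with 38.0, 104, 182, 211, 200 and 104 CPM in rich pools (in the order above) and 7.51, 26.2, 1.34, 1.84, 3.90 and 34.2 CPM in poor pools. The pools nearest the boundary were CN F1 on the rich side and HY M2 on the poor side, with 38.0 and 34.2 CPM of ITGB6, 33830 and 55790 CPM summed over sarcomere genes, and 15.2% and 14.8% of the longissimus level over muscle genes.

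**Figure D1:**
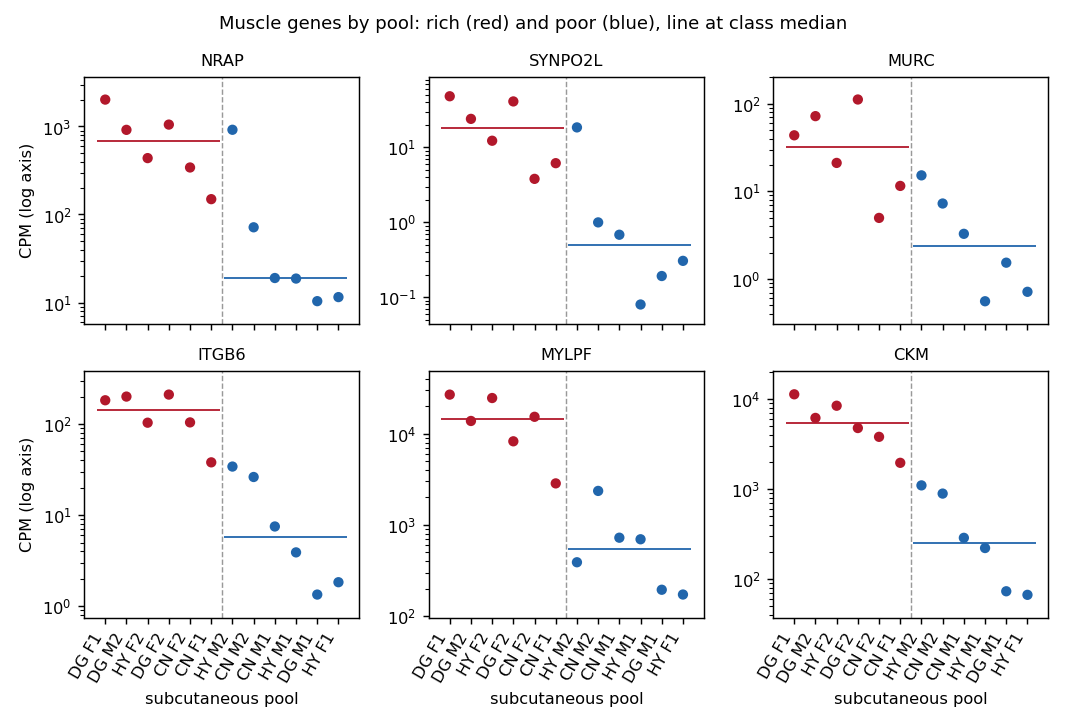
CPM (log axis) of NRAP, SYNPO2L, MURC, ITGB6, MYLPF and CKM in each of the 12 subcutaneous pools, rich in red and poor in blue, ordered within a class by their muscle level, with a line at each class median. HY M2, the first poor pool, lies among the rich pools for NRAP (918 CPM) and SYNPO2L (18.5 CPM) but not for MYLPF (390 CPM).

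The class of HY M2 thus goes against part of its own markers, and the main counts below are given with and without it. Muscle level was measured from 309 genes that were at least 64 times higher in longissimus than in perirenal fat (edgeR quasi-likelihood test, FDR ≤0.05) and had at least 10 CPM in longissimus. Fewer muscle cells and less RNA per muscle cell cannot be told apart in such bulk samples. The median of these genes, as a percentage of their mean in longissimus, was 66.3% in DG F1, 62.1% in DG M2, 55.2% in HY F2, 52.5% in DG F2, 31.6% in CN F2 and 15.2% in CN F1. In poor pools it was 14.8% in HY M2, 8.36% in CN M2, 3.29% in CN M1, 2.13% in HY M1, 1.35% in DG M1 and 1.05% in HY F1. Class means were 47.1% ± 19.7 and 5.17% ± 5.44 (SD, n = 6), and 3.24% ± 2.99 (n = 5) for poor pools without HY M2. Perirenal libraries were at 0.00191% to 0.294%, a low level that the choice of genes fixed. Sarcomere genes alone took 3.72% to 18.0% of all counts in rich pools, 0.176% to 6.17% in poor pools, 14.0% to 17.3% in longissimus and 0.0557% to 0.143% in perirenal fat.

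Slow fibre genes stood higher against longissimus than fast fibre genes did in all 12 pools. Over 6 slow fibre genes among the 309 the median was 339% of longissimus in DG F1, 269% in HY F2, 187% in CN F2 and in DG F2, 182% in DG M2 and 51.5% in CN F1. Over 9 fast fibre genes it was 83.6%, 78.4%, 43.5%, 33.9%, 57.9% and 11.6% in the same pools. The slow median was 3.15 to 5.51 times the fast median in rich pools and 2.7 to 4.54 times in 5 poor pools, against 113 times in HY M2. Loci of MYL2, TNNC1, CASQ2, MYLPF, TNNC2, ATP2A1 and MYOZ1 were not matched by span between the subcutaneous and muscle assemblies, so their percentages are uncertain.

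HY M2 had slow fibre genes at the level of the rich pools and fast fibre genes at the level of the poor pools. MYL2, the slow regulatory myosin light chain, was 14600 CPM in HY M2, 3821 to 23640 CPM in rich pools and at most 1264 CPM in the other poor pools. OMYHCS, the name the files give to the ovine slow myosin heavy chain, was 6917 CPM in HY M2 against 1332 to 7092 CPM in rich pools. Myoglobin (MB), the oxygen store of oxidative fibres, was 1884 CPM there, above the rich maximum of 1818 CPM. MYLPF, the fast regulatory light chain, was 390 CPM in HY M2, 2851 to 26800 CPM in rich pools and 172 to 2358 CPM in the other poor pools. TNNC2, the fast troponin C, was 61.1 CPM in HY M2 and 513 to 3472 CPM in rich pools. The locus that joins the fast, embryonic and neonatal myosin heavy chains behaved alike, with 810 CPM in HY M2 and 6815 to 33700 CPM in rich pools.

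**Figure D2:**
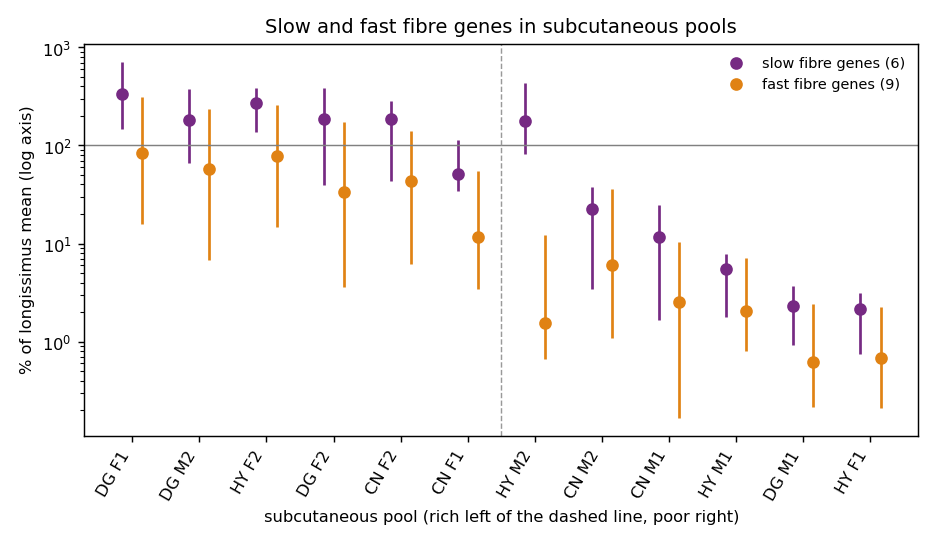
Level of 6 slow (purple) and 9 fast (orange) fibre genes in each subcutaneous pool as a percentage of their mean in longissimus (log axis), with points at the median and lines from the lowest to the highest gene. In HY M2 the slow median is 177% and the fast median 1.56%, whereas the other pools keep them within 2.7 to 5.51 times of each other.

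Across all genes, 343 of 16524 genes and loci (2.08%) were higher in every rich pool than in every poor pool with at least a 2-fold difference, and 164 (0.992%) were higher in every poor pool by the same rule. Differences are means of log2(CPM + 0.5) in rich minus poor pools, and genes that passed the filter on low counts may have done so through a single class. Without HY M2 the counts were 766 and 225, with HY M2 counted as rich 575 and 93, and without CN F1 821 and 305. The count for the poor pools also rose to 306 without DG M1 and 256 without CN F2. TMM factors computed without muscle-higher genes gave 426 and 105, and scaling by library totals gave 305 and 331, so the balance of directions depended on the scaling. Of the 230 rich-pool genes also tested between longissimus and perirenal fat, 221 (96.1%) were higher in muscle, where 21.2% of 12485 genes were (2653, edgeR quasi-likelihood test, FDR ≤0.05 and at least 2-fold). Of 54 poor-pool genes so tested, 49 (90.7%) were higher in perirenal fat, where 19.0% of genes (2378) were.

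The sarcomere list, with 42 genes past the filter, had a median difference of 4.06 (median of all features −0.03), and all 42 had higher means in rich pools. Only 8 of them passed the no-overlap rule, which 2.08% of all features passed towards rich pools. All 8 were fast fibre genes except TPM1, and 37 of the list passed without HY M2. Of 10 fast fibre genes 9 separated the classes, PVALB being the exception, while none of 10 slow fibre genes did. Without HY M2 these were 10 and 9. Embryonic and neonatal fibre genes, 3 in number, had a median difference of 1.99 and overlapped. In longissimus against perirenal fat, 40 of 40 sarcomere genes tested were higher in muscle, as were 21.2% of all genes tested.

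Genes of excitation-contraction coupling, which carry the nerve signal to calcium release, had a median difference of 3.66 over 20 genes. Of these, 9 separated the classes, against 2.08% of all features, and 18 did without HY M2. ATP2A1, the calcium pump of fast fibres, was 912 to 3593 CPM in rich pools and 28.9 to 314 CPM in poor pools, a difference of 4.57. CASQ1, which binds calcium in the reticulum, had 640 to 3144 CPM and 27.8 to 369 CPM. The ryanodine receptor RYR1, triadin (TRDN), the sodium channel SCN4A and the chloride channel CLCN1 were also apart, with differences of 4.24, 3.61, 3.71 and 2.48. CASQ2, the slow and cardiac form, overlapped through HY M2 (453 CPM against a rich minimum of 244 CPM).

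The neuromuscular junction was represented too. CHRNA1, the alpha subunit of the muscle acetylcholine receptor, was 55.9, 158, 254, 185, 223 and 235 CPM in CN F1, CN F2, DG F1, DG F2, DG M2 and HY F2. It was between 2.14 CPM (HY F1) and 39.5 CPM (CN M2) in poor pools, and no poor pool reached the lowest rich pool. CHRND, the delta subunit, was 9.12 to 27.2 CPM and 0.102 to 7.47 CPM, a difference of 3.62. The other members of 8 overlapped, from CHRNB1 with 2.73 to acetylcholinesterase (ACHE) with 0.82. Of all features, 2.08% passed the rule towards rich pools. All 8 were higher in longissimus than in perirenal fat, as were 21.2% of all genes tested.

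Among energy genes, 14 of 22 separated the classes (2.08% of all features did), with a median difference of 3.1. CKM, the muscle creatine kinase, was 1966 to 11340 CPM in rich pools and 67.2 to 1104 CPM in poor pools. ENO3 (muscle enolase) differed by 4.35, PYGM (glycogen phosphorylase) by 4.08, PGAM2 by 4.06 and PFKM by 3.44. CA3 (carbonic anhydrase of slow fibres) and MB had differences of 3.97 and 4.30 but overlapped, since HY M2 held 1951 and 1884 CPM. GYS1, the glycogen synthase also used outside muscle, had a difference of 0.18. The oxidative phosphorylation list as a whole had a median of 0.37 over 51 genes, none of which passed the rule, and the direction turned within sexes (−0.50 in females and 0.49 in males, each with a lone pool in a class). Its largest difference belonged to COX6A2, the muscle form of a cytochrome oxidase subunit (3.65).

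Satellite cell and myogenic genes followed in part. VGLL2, a cofactor of muscle transcription, was 32.0 to 305 CPM in rich pools and 1.22 to 26.3 CPM in poor pools. It was the only one of 15 past the filter to separate the classes. MYOD1, TMEM8C, IGFN1 and PAX7 had at most 8 counts in any pool and did not pass the filter. MYOG (myogenin, the factor of terminal differentiation) was 43.2 to 224 CPM in rich pools, 90.7 CPM in HY M2 and at most 20.1 CPM in the other poor pools. MYF5, a marker of muscle precursors, was 2.17 to 14.3 CPM in rich pools, 12.4 CPM in HY M2 and at most 1.85 CPM in the other poor pools. ITGA7, an integrin of muscle and of vessels, went the other way, with 381 to 679 CPM and 435 to 1346 CPM. It was also higher in perirenal fat than in longissimus (log2 difference −2.05, FDR 1.44e-14, edgeR). Of 13 dystrophin complex genes 3 separated the classes (2.08% of all features did), with a median difference of 2.17 over the 13. SGCD, a sarcoglycan, was 3.99 to 10.4 CPM in rich pools and 0.816 to 2.77 CPM in poor pools, and DYSF, a protein of membrane repair, had a difference of 0.31. Of 11 ubiquitin ligase genes of muscle, ASB15, ASB2, ASB16 and ASB4 did. The ligases of muscle wasting, TRIM63 and FBXO32, had differences of −0.09 and 0.33.

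**Figure D3:**
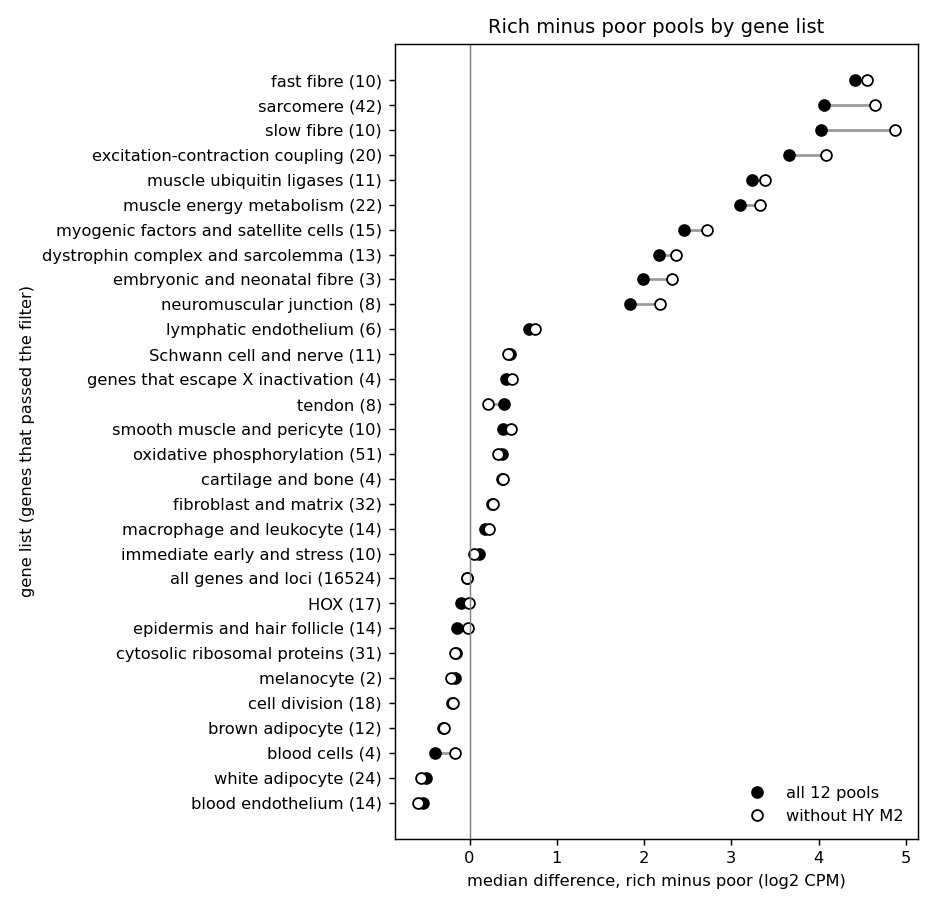
Median difference of each gene list, rich minus poor pools in log2 CPM, over all 12 pools (filled points) and without HY M2 (open points), with the number of genes past the filter in brackets. Over all 12 pools, muscle lists lie between 1.84 and 4.42 and lists of other cell types between −0.53 and 0.69.

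Some muscle genes exceeded their longissimus level in the rich pools. Over the 309 muscle genes, 54 had a mean above 100% of longissimus in rich pools. TBX15, a transcription factor that patterns the trunk and limb girdles, was 223% to 696% of longissimus there. In poor pools it was 63.3% to 165%, with CN M2, HY M2 and DG M1 above 100% as well. In CPM it was 76.9 to 231 in rich pools and 22.5 to 56.9 in poor pools, a difference of 2.23. Myostatin, listed as GDF-8, the inhibitor of muscle growth, was 23.9 to 78.8 CPM in rich pools and 1.43 to 17.7 CPM in poor pools, highest in CN M2 and at 2.42 CPM in HY M2. The loci of TBX15 and GDF-8 were not matched by span between the subcutaneous and muscle assemblies. In contrast, 38 of the 309 stayed below 5% in every rich pool, 18 of them with spans that matched (195 of the 309 did). PAX7, the satellite cell factor, had at most 4 counts in any subcutaneous library against a mean of 678 in longissimus. These 3 genes were picked after their values had been seen. Genes that every cell uses, such as RPL3 and RPL18, are listed at 0 in all 12 pools too, so a gene listed at 0 is not shown to be absent. Unlike PAX7, RPL3 and RPL18 are also listed at 0 in longissimus.

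Of the 230 rich-pool genes tested between the tissues, 3 were higher in perirenal fat and 6 in neither tissue. ESR1, the estrogen receptor alpha, had the largest difference among them, with 26.1, 27.3, 60.1, 77.3, 65.3 and 64 CPM in CN F1, CN F2, DG F1, DG F2, DG M2 and HY F2. In poor pools it was between 11.2 and 18.1 CPM, a difference of 1.75. It was lower in longissimus than in perirenal fat (log2 difference −1.87, FDR 8.47e-11, edgeR), so its direction differed from that of the muscle genes. ACYP2, an acylphosphatase, had 37.6 to 78.7 CPM and 10.8 to 31.6 CPM (1.54), and LNPEP, an insulin-regulated aminopeptidase, a difference of 1.46. EGLN3, an oxygen-sensing prolyl hydroxylase, had 116 to 235 CPM and 42.9 to 94.4 CPM (1.22). KLHDC3, DNAJC19, PTPN21 and LPCAT3 also differed by at least 2-fold, with 1.35, 1.16, 1.11 and 1.05. Below 2-fold, the next in order were ITIH5, P4HA1 (a collagen prolyl hydroxylase), DNAJB4, TMEM245, PFDN1, CNBP and TMEM70, between 0.98 and 0.78. KLHDC3 and TMEM245 have overlapping loci in the muscle assembly, so their lower values in longissimus are uncertain.

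The 15 named genes with the largest difference towards the poor pools were RHBG, LPAR6, ATG9B, KISS1R, SLC4A11, RGL3, DGKH, SHPK, SGSM1, ADRA1A, LPL, TTC36, GUCA1A, GUSB and ZFP1, with differences from −1.67 to −1.15. RHBG, an ammonium transporter, was 39.2, 27.5, 23.2, 26.7, 51.4 and 23.7 CPM in CN M1, CN M2, DG M1, HY F1, HY M1 and HY M2, and 5.14 to 17.2 CPM in rich pools. LPAR6, a receptor for lysophosphatidic acid, was 133 to 276 CPM against 41.8 to 91.0 CPM. ATG9B, a protein of autophagosome membranes, was 98.1 to 144 CPM against 27.2 to 53.0 CPM. KISS1R, the kisspeptin receptor, and ADRA1A, an adrenergic receptor, were low throughout, at 5.09 to 12.2 and 7.19 to 13.3 CPM in poor pools. Of the 14 tested, 13 were higher in perirenal fat than in longissimus, as were 19.0% of all genes tested. DGKH (a diacylglycerol kinase) was higher in longissimus by 2.37.

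Loci without a gene name made up 106 of the 164 poor-pool features (64.6%) and 88 of the 343 rich-pool features (25.7%), against 23.4% of the 16017 features that met neither rule. All unnamed loci together took 4.64% to 6.58% of counts in rich pools (mean 5.38% ± 0.735, SD, n = 6) and 8.50% to 14.8% in poor pools (10.4% ± 2.77). A short locus on chromosome X from 56352102 to 56352941 held 7073 to 12510 CPM in rich pools and 17190 to 39470 CPM in poor pools. With a locus on chromosome 3 from 100723313 to 100723676 and one on chromosome 1 from 141844503 to 141844721, it took 0.969% to 1.97% and 3.52% to 9.43% of counts. Leaving these 3 loci out, unnamed loci took 3.60% to 4.61% in rich pools and 4.98% to 5.51% in poor pools, still without overlap. The share of all unnamed loci was higher in the poor pools, whose total counts were lower. Among poor pools, CN M2 had 8.76% with 6705766 counts and HY M1 13.1% with 11373497 counts. The part of total counts in this share was not tested.

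Of 24 white adipocyte genes past the filter, 21 had lower means in rich pools, with a median difference of −0.50, and LPL passed the no-overlap rule (0.992% of all features passed it in that direction). LPL, the lipase that frees fatty acids from circulating lipoproteins, was 218 to 470 CPM in rich pools and 538 to 1451 CPM in poor pools. ADIPOQ (adiponectin) was 1606, 958, 979, 991, 696 and 2032 CPM in CN F1, CN F2, DG F1, DG F2, DG M2 and HY F2. It was 5663, 2829, 2779, 1766, 4091 and 1687 CPM in CN M1, CN M2, DG M1, HY F1, HY M1 and HY M2, so HY F2 lay among the poor pools. FABP4, the fatty acid carrier of adipocytes, was 726 to 4744 CPM and 1716 to 6488 CPM, with the rich maximum in CN F1. Summed over the list, CN F1 held 10350 CPM, also the rich maximum (rich median 4516 CPM). Poor pools held 5742 to 13680 CPM (median 10820 CPM). HY M2 was the lowest poor pool for ADIPOQ, FABP4 and LPL. DGAT2, which makes triglyceride, had a difference of −0.71 and SLC2A4, the insulin-responsive glucose transporter shared with muscle, one of 0.72. Of 22 white adipocyte genes tested, 19 were higher in perirenal fat than in longissimus, as were 19.0% of all genes tested. With muscle-higher genes left out of the scaling factors, the median of all features moved from −0.03 to 0.08 and that of white adipocyte genes from −0.50 to −0.38.

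Brown adipocyte genes had a median of −0.30 over 12 genes. UCP1 was 10.5 to 80.1 CPM in rich pools and 55.6 to 134 CPM in poor pools, a difference of −1.19 with overlap. EBF2, a factor of brown precursors, was apart at 62.4 to 107 and 113 to 167 CPM, though by less than 2-fold (−0.65). At any fold, 591 of 16524 features were apart in that direction. SLC27A2, a fatty acid transporter, had −1.57 and ELOVL3, a fatty acid elongase, 1.32, both at under 16 CPM.

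**Figure D4:**
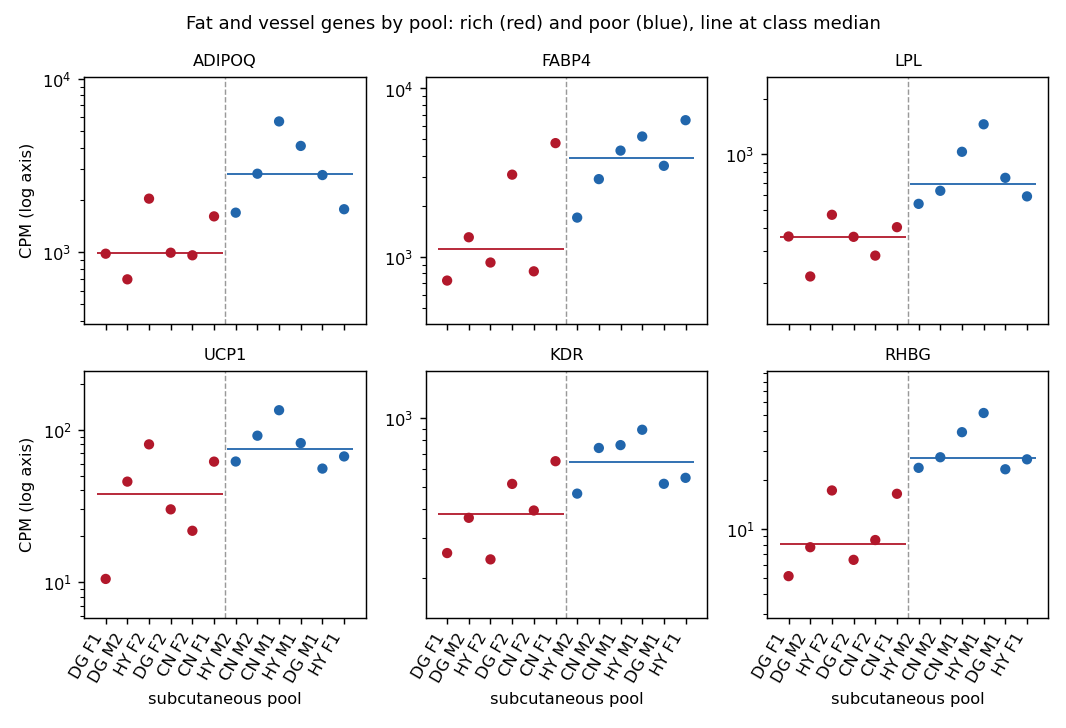
CPM (log axis) of ADIPOQ, FABP4, LPL, UCP1, KDR and RHBG in each subcutaneous pool, rich in red and poor in blue, ordered within a class by their muscle level, with a line at each class median. LPL and RHBG do not overlap between the classes, and the others do.

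All 14 blood endothelium genes had lower means in rich pools, with a median of −0.53, but none separated the classes. KDR, the main receptor for vascular endothelial growth factor, was 242 to 650 CPM in rich pools and 469 to 891 CPM in poor pools. Summed over the list, CN F1 held 3567 CPM, the rich maximum (rich median 1778 CPM). Poor pools held 2361 to 4315 CPM (median 2739 CPM). VWF (von Willebrand factor) and CDH5 (the junction protein of endothelium) had −0.63 and −0.41, and SOX17 had −1.04. Of 12 tested, 4 were higher in perirenal fat than in longissimus and none was higher in longissimus. Of all genes tested, 19.0% and 21.2% were. Lymphatic genes had a median of 0.69 over 6 genes, with PROX1 (1.32) and PDPN (1.86) highest and FLT4 at −0.49. PROX1 and PDPN were also higher in longissimus than in perirenal fat (log2 differences 4.97 and 2.34), and within males the list median was −0.09.

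The fibroblast and matrix list had a median of 0.26 over 32 genes, with no gene apart. Collagen III (COL3A1) was 2977 to 6166 CPM and 2428 to 3739 CPM, SPARC had 0.22 and decorin (DCN) 0.21. VIM, the filament protein of mesenchymal cells, was lower in rich pools at 2430 to 4831 against 4591 to 7608 CPM (−0.91). DLK1, an inhibitor of adipocyte formation, had 1.53 and was higher in longissimus than in perirenal fat by 4.34. Of the 32 genes, 13 were higher in longissimus and 4 in perirenal fat, against 21.2% and 19.0% of all genes tested. The tendon list had a median of 0.40 over 8 genes, which was 0.21 without HY M2 and −0.20 within males. Its members CHODL (2.05) and THBS4 (1.20) were higher in longissimus than in perirenal fat by 8.99 and 2.98, and CHODL is among the 309 muscle genes. Smooth muscle and pericyte genes had a median of 0.38 over 10. MYH11, the smooth muscle myosin, was highest in HY M2 at 735 CPM, against 153 to 449 CPM in the other poor pools and 132 to 222 CPM in rich pools.

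Keratinocyte markers were low. Of 37 epidermis and hair follicle genes in the files 14 passed the filter, and KRT5, KRT1, DSG1 and DSG3 had at most 12 counts in any pool. Some ribosomal protein genes were as low, so these counts do not show that skin was absent. The median of the 14 was −0.15, and −0.02 without HY M2. ITGA6 (158 to 347 and 349 to 518 CPM) and COL17A1 (0.444 to 1.04 and 1.44 to 2.28 CPM) were higher in every poor pool by less than 2-fold. At any fold, 591 of all 16524 features were higher in every poor pool. ITGB6 was higher in rich pools by 4.08. On a scaling common to all 36 libraries ITGB6 was 192.8 ± 28.2 CPM in longissimus (SD, n = 12) against 0.0076 CPM in perirenal fat (log2 difference 13.41, SE 0.185, FDR 6.36e-29, edgeR), which is the pattern of the muscle genes. Melanocyte genes were at up to 40.1 CPM (MITF), and TYR, TYRP1 and MLANA did not pass the filter.

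The Schwann cell and nerve list had a median of 0.46 over 11 genes, none of them apart, with NCAM1 at 1.68 and L1CAM at −0.81. Of the 11, 6 were higher in longissimus than in perirenal fat, NCAM1 by 4.55, and 1 was higher in perirenal fat. Of all genes tested, 21.2% and 19.0% were.

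Blood cell genes (4 past the filter), leukocyte genes (14), cell division genes (18), HOX genes (17) and cytosolic ribosomal protein genes (31) had medians of −0.40, 0.18, −0.21, −0.09 and −0.15, with no gene past the rule. Without HY M2 the blood cell and HOX medians were −0.17 and −0.01. The leukocyte median was negative within both sexes (−0.20 in females and −0.14 in males), and that of cell division genes was 0.13 within females. MRC1, the mannose receptor of macrophages, had 1.48. RPL3L, the ribosomal protein of striated muscle, had 4.12 and overlapped. Reads of ribosomal protein genes can be shared with near-identical copies, so single values are uncertain. IER3, an early response gene, was at 33.6 to 101.1 and 12.8 to 26.5 CPM. It was the only one of 10 early and stress genes to separate the classes (2.08% of all features did). Among 4 genes that escape X inactivation USP9X was apart by 0.68, where 519 of 16524 features were apart towards rich pools at any fold. Of the 6 rich pools 5 were female. The loci XIST_intron,Xist_exon4 and Xist_exon1, named after their values were seen, had 2.64 and 1.46, both with overlap. Cartilage genes had a median of 0.37 over 4 genes.

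Of the 23 subcutaneous genes that the study names, 22 are listed by symbol, and ANKRD1 is listed by its synonym CARP in the RefSeq gene table. The 22 had a median of 1.12, and 5 of them, ITGB6 included, were apart by at least 2-fold (2.08% of all features were). The genes were chosen on these libraries by the study, so the list is not independent of them. ITGB6, SYNPO2L and MURC also set the classes, so their direction was fixed in advance and enters the median. SHISA2, a receptor-trafficking regulator of muscle precursors, was 89.4 to 296 and 4.18 to 69.6 CPM (3.52). PRKAA2, the AMPK catalytic subunit that prevails in muscle, was 35.1 to 144 and 9.98 to 30.2 CPM (2.26), AMOT, a regulator of the Hippo pathway, 103 to 394 and 50.7 to 84.5 CPM (1.55), and UBR3, a ubiquitin ligase, 106 to 275 and 51.1 to 96.5 CPM (1.29). CARP was apart as well, at 37.0 to 906 CPM in rich pools and 1.53 to 29.3 CPM in poor pools. CPT1A (−1.30), ANGPTL4 (−1.02) and PNPLA3 (−0.91), genes of fatty acid oxidation and lipolysis, had lower means in rich pools but overlapped. CIDEA, CIDEC, AACS and MLXIPL lay between −0.61 and −0.47, and NR1D2, ARID5B, WDTC1, PRKAB2, TGFB2, SOX6, PLA2G7 and KREMEN1 between 0.52 and 2.62. MURC and SYNPO2L, with 3.12 and 3.45, complete the list. In the test of longissimus against perirenal fat, 13 of 21 of these genes were higher in muscle and 7 in perirenal fat. Of all genes tested, 21.2% and 19.0% were. In each of the 13 the mean was higher in rich pools, and in each of the 7 it was lower. The 13 include ITGB6 and SYNPO2L, whose direction the division into classes had fixed.

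**Figure D5:**
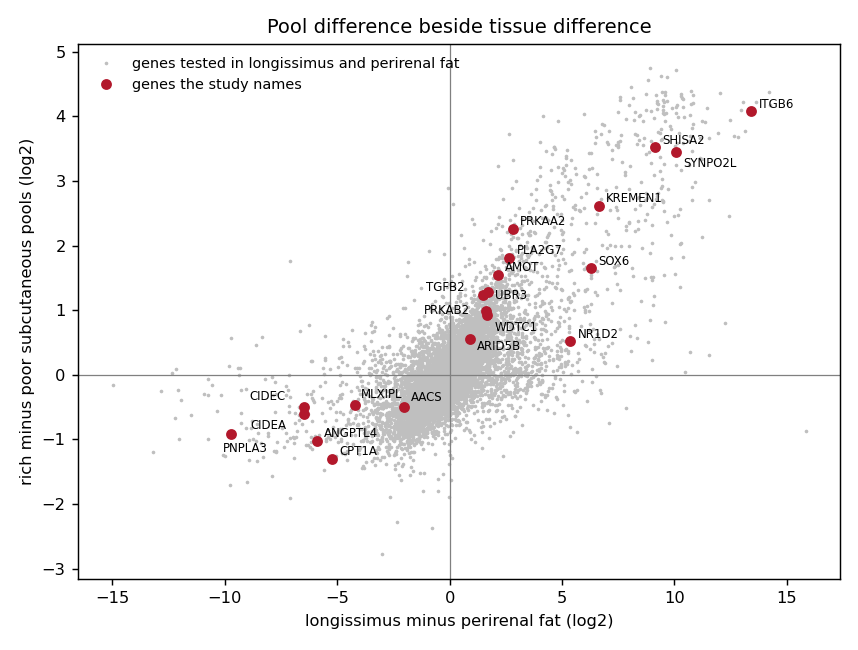
Difference between rich and poor subcutaneous pools (vertical, log2) beside the difference between longissimus and perirenal fat (horizontal, log2) for genes tested in both, with 21 genes named by the study in red. ITGB6 lies at 13.41 and 4.08, and CPT1A at −5.22 and −1.30.

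The same split of pools was tested in tissues that played no part in the choice. In perirenal fat, 0 of 16815 genes passed FDR ≤0.05 between pools whose subcutaneous RNA was rich and poor (edgeR quasi-likelihood test, n = 6 and 6, 397 genes at an unadjusted p under 0.05, 0 by DESeq2). In longissimus 0 of 17238 passed (339 at an unadjusted p under 0.05, 0 by DESeq2). In both tissues the unadjusted count was below the share of 0.05 that chance alone gives on average. The median log2 difference of sarcomere genes was −0.34 in perirenal fat (31 genes) and −0.01 in longissimus (42 genes). NRAP was 2.11 ± 0.606 and 4.09 ± 2.72 CPM in perirenal fat (SD, n = 6; log2 difference −0.96, SE 0.352, FDR 1, edgeR). In longissimus, scaled on its own, ITGB6 was 145 ± 13.7 and 147 ± 27.1 CPM (FDR 1, edgeR) and ADIPOQ 13.6 ± 12.4 and 8.72 ± 6.71 CPM (FDR 1, edgeR). Since 5 of 6 rich pools were female and 5 of 6 poor pools male, this test is also nearly one of sex.

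Each diet had subcutaneous pools of high and of low muscle level. The CN pools spanned 3.29% to 31.6% of longissimus, with a mean of 14.6% ± 12.3 (SD, n = 4). For DG pools the range was 1.35% to 66.3% and the mean 45.6% ± 30.0. HY pools lay between 1.05% and 55.2%, around 18.3% ± 25.4. Within sexes, with a lone pool in a class, the median difference of sarcomere genes was 6.05 in females and 3.83 in males, and that of white adipocyte genes −1.09 and −0.72.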

How the data were processed

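Total RNA was extracted, treated with DNase and sequenced on a HiSeq 2000 after the Illumina mRNA-Seq library protocol. The authors aligned reads to Oar_v3.1 with TopHat2 2.0.4 and assembled loci with Cufflinks 2.1.1, separately for each tissue. The labels also name HTSeq, with a version not given in the sources used here. The values the authors deposited are raw counts per locus, 1 file per library. Loci are numbered per tissue (34246 in the subcutaneous files), so tissues were joined by gene name, and locus spans can differ between them. Loci of 1 name were summed, and starts were raised by 1 to count from 1. In alignment the authors discarded reads with equally good matches at many genomic sites. The paper reports a larger share of uniquely mapped reads in muscle than in adipose tissue. How the remaining multi-mapped reads and strand were treated in counting is not given in the sources used here, so overlapping genes and near-identical copies are uncertain. Loci without a gene name took 7.12% of subcutaneous counts and were kept.

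From the deposited counts, low genes were left out by edgeR's filterByExpr (version 4.0.16, minimum count 10, minimum total 15, grouped by class), and counts were scaled by TMM. Rich and poor pools were compared by mean log2(CPM + 0.5) and by overlap of pools, with no test. Longissimus and perirenal fat, and the classes within each, were tested in edgeR by quasi-likelihood, and p-values were adjusted after Benjamini-Hochberg. DESeq2 1.42.0 was an alternative. A standard error here is the log2 difference over the root of its F value. Levels as a percentage of longissimus used 1 TMM scaling over the 36 libraries. Scripts were tested on simulated data. R 4.3.3 (with limma 3.58.1) and Python 3.11.15 (pandas 2.3.3, matplotlib 3.10.9) were used.

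The class of each pool, the gene lists and the rule for named genes were chosen with earlier results of these data known. Named were the 4 markers, the most abundant and most different members of each list, the 15 genes with the largest difference in each direction that carry a symbol, average 50 counts or more and do not overlap (for the rich pools only genes tested and under 2-fold higher in muscle), and the genes the study names. Genes named after their values were seen are marked as such. Pools of a diet differed beyond sampling noise in all 18 pairs (chi-square per degree of freedom at least 21.9). Longissimus and perirenal libraries of 1 name come from the same fetuses. Their deviations from diet means correlated at 0.131 on average across genes, against −0.0115 for other names, and the lowest of the 12 was −0.0949. Subcutaneous totals of 6705766 to 20272024 counts make low genes least precise in the poor pools. The 12 pools per tissue limit every comparison, and p-values measure the spread between pools. Results for some genes are not reported here.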

Additional observations from a re-analysis of the deposited data

Results flagged for a closer look

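A pool was singled out where its gap to the nearest other pool of its class was more than 0.625 of the class range. Chance gives this in about 1 in 20 groups only where a measure was chosen beforehand and its values are normally distributed. The gaps were taken on CPM, percentages and ratios without a log, which need not be so distributed. The rate also does not apply to NRAP and SYNPO2L, which set the classes, or to genes picked for their values. Of 78 groups of 6 pools, which are not independent of each other, 14 met this, and 12 of the 14 were HY M2. The other genes were chosen after their values had been seen.

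HY M2 stood above the other 5 poor pools in NRAP (917.8 CPM, next 71.5 CPM), SYNPO2L (18.5 CPM, next 0.998 CPM), MYL2 (14600 CPM, next 1264 CPM), TNNC1 (3578 CPM, next 336 CPM) and OMYHCS (6917 CPM, next 327 CPM). It also did so in MB (1884 CPM, next 92.1 CPM), CA3 (1951 CPM, next 250.0 CPM), CHRND (7.471 CPM, next 1.57 CPM), MYOG (90.72 CPM, next 20.1 CPM) and MYF5 (12.45 CPM, next 1.85 CPM). Its slow fibre median of 177.4% of longissimus (next 22.7%) gave a ratio of slow to fast fibre genes of 113.5 (next 4.54). CN M2 was the highest poor pool in MYLPF (2358 CPM, next 724 CPM) and in the fast fibre median (6.032%, next 2.56%).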

How the results depend on the processing

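Counts of features higher in rich and in poor pools were 343 and 164. They were 378 and 138 with RLE size factors, 466 and 132 without the filter on low counts, 426 and 105 with muscle-higher genes left out of the TMM factors, 305 and 331 with library totals, and 294 and 60 with a pseudocount of 2 CPM. Leaving out a pool at a time gave 330 to 821 and 143 to 306. Without both CN F1 and HY M2 they were 1147 and 420, and with HY M2 counted as rich, chosen after seeing the data, 575 and 93. Of the 343 features 342 were kept without HY M2, and of the 164, 155. Within female pools 1531 and 1239 met the rule, within males 1419 and 806, within CN 1021 and 497, within DG 1830 and 1091 and within HY 1471 and 918. These rest on 1 or 2 pools in the smaller class, so separation is easier to meet by construction. Longissimus against perirenal fat gave 2657 and 2386 genes with the pool as a block, since the libraries are paired, against 2653 and 2378. Loci with matching spans alone, chosen after seeing the data, gave 1593 and 1615, with fewer genes tested. DESeq2, RLE factors, no filter and pools left out stayed within 1.5 times. The class split gave 0 genes in perirenal fat and 0 in longissimus under every setting run, the replicate number as a block (0 and 0) included, except 1 when single pools were left out (range 0 to 1 in each tissue). That gene was an unnamed locus in perirenal fat without DG M1, the locus XIST_intron,Xist_exon4 in longissimus without HY F1 and TMC2 without HY F2. Pools with the same number deviated together at −0.0443 in longissimus and 0.0546 in perirenal fat, so the number is not shown to pair them. The muscle level of rich and poor pools was 47.1% and 5.17%, between 46.9% and 51.4% and between 5.78% and 6.90% with other gene sets or scaling, and 43.3% to 53.5% and 3.24% to 5.99% with a pool left out. Low genes are least precise in the poor pools, which hold the fewest counts.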
